A study of Rattus norvegicus with 4 samples.

Results

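Chondroitin sulfate proteoglycans were followed in cultured rat cortical neurons that carried an shRNA against PHF6, a nuclear zinc-finger protein, or a control shRNA. The set held 10 genes, listed by name, with earlier results of these data known: Cspg5, the lecticans Ncan, Bcan, Vcan and Acan, the phosphatase gene Ptprz1, Cspg4, and 3 genes of proteins that bind lecticans or hyaluronan, Tnr, Hapln1 and Hapln4. All 10 were found among the 17245 named genes of the array, each with 1 probe set. Total RNA was measured on 4 one-colour Affymetrix whole-transcript arrays, 2 from neurons infected with pLL3.7 lentivirus expressing the hairpin PHF6shRNA-2 and 2 from neurons infected with the same vector expressing a control shRNA, labelled wild type. All cultures came from Sprague Dawley cortex at embryonic day 18, all were infected, and RNA was taken at 5 days after infection. The PHF6 shRNA arrays carry 1 hairpin, and effects of that hairpin other than the loss of PHF6 were not separated from it. The labels call the arrays of a group biological duplicates without naming separate cultures or animals, so p-values measure the spread between these arrays.

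A chondroitin sulfate proteoglycan is a core protein to which chondroitin sulfate chains are attached in the Golgi, first through a short linker of sugars that starts at xylose and then by repeated addition of disaccharides, which sulfotransferases modify. The lecticans bind hyaluronan at one end and tenascin-R at the other, link proteins of the Hapln family hold the lectican on the hyaluronan, and the resulting matrix surrounds neurons, above all in perineuronal nets, and limits neurite growth and plasticity. Neuroglycan C, the product of Cspg5, differs from the lecticans in that it spans the membrane and carries an EGF-like domain outside the cell, and it is found mostly on neurons of the developing brain.

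Values are probe set intensities on the linear scale of the deposited table, whose medians lay between 40.9 and 41.7 on the 4 arrays. The background level of an array was the value below which 95% of 206 olfactory or vomeronasal receptor genes lay. It was 39.9 and 32.7 in PHF6 shRNA duplicates 1 and 2, and 41.2 and 32.5 in control duplicates 1 and 2. Phf6 itself was near that level, at 34.4 and 31.3 in the PHF6 shRNA arrays and 32.8 and 34.3 in the control arrays, so its probe set could not check the group labels. The design text says that the knockdown was checked by quantitative PCR, with no value given. All 10 markers of a neuron list were above background on all 4 arrays, whereas all 5 measured endothelial markers and 5 of 9 microglial markers were below it on every array. Summed intensity was 127 and 121 in the PHF6 shRNA arrays against 128 and 119 in the control arrays for the endothelial genes, 293 and 273 against 296 and 259 for the microglial genes, and 368 and 359 against 352 and 342 for 8 fibroblast and mural cell genes. Of the 10 proteoglycan and link protein genes, 7 exceeded background on all 4 arrays, Cspg4 and Hapln4 only on the arrays numbered 2, and Hapln1 on none. The arrays numbered 2 had the lower background levels, and Hapln4 was almost level over the 4 arrays (37.8 to 39.1). The smallest 2-sided p of an exact permutation test on 2 arrays against 2 is 0.333, so limma's moderated test over all 17245 genes was used.

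None of the 10 genes passed an adjusted p of 0.05 (limma, Benjamini-Hochberg), and neither did any other gene (0% of 17245, smallest adjusted p = 0.229). Without PHF6 shRNA duplicate 2 the count over all genes was 90 and without PHF6 shRNA duplicate 1 it was 2. At an unadjusted p under 0.05, 2 of the 10 stood out, Cspg5 with lower and Vcan with higher signal in the PHF6 shRNA arrays, where 10.8% of all genes did. Of all genes 7.52% passed this level toward lower and 3.28% toward higher signal, so that 69.7% of those passing were lower. That share was 54.5% after a further quantile normalization and 48.2% after cyclic loess. The same 2 genes were the only ones of the 10 whose groups did not overlap, while 37.8% of all genes had groups without overlap. Cspg5 was the only one of the 10 with non-overlapping groups and a signal at least 1.5-fold lower, as 0.690% of all genes had. Of the 10 genes 7 had a higher and 3 a lower mean with PHF6 shRNA, against 47.7% and 52.3% of all genes. Over the 10 genes the median difference, PHF6 shRNA minus control shRNA, was 0.020 log2 units, against -0.0066 over all genes.

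**Figure D1:**
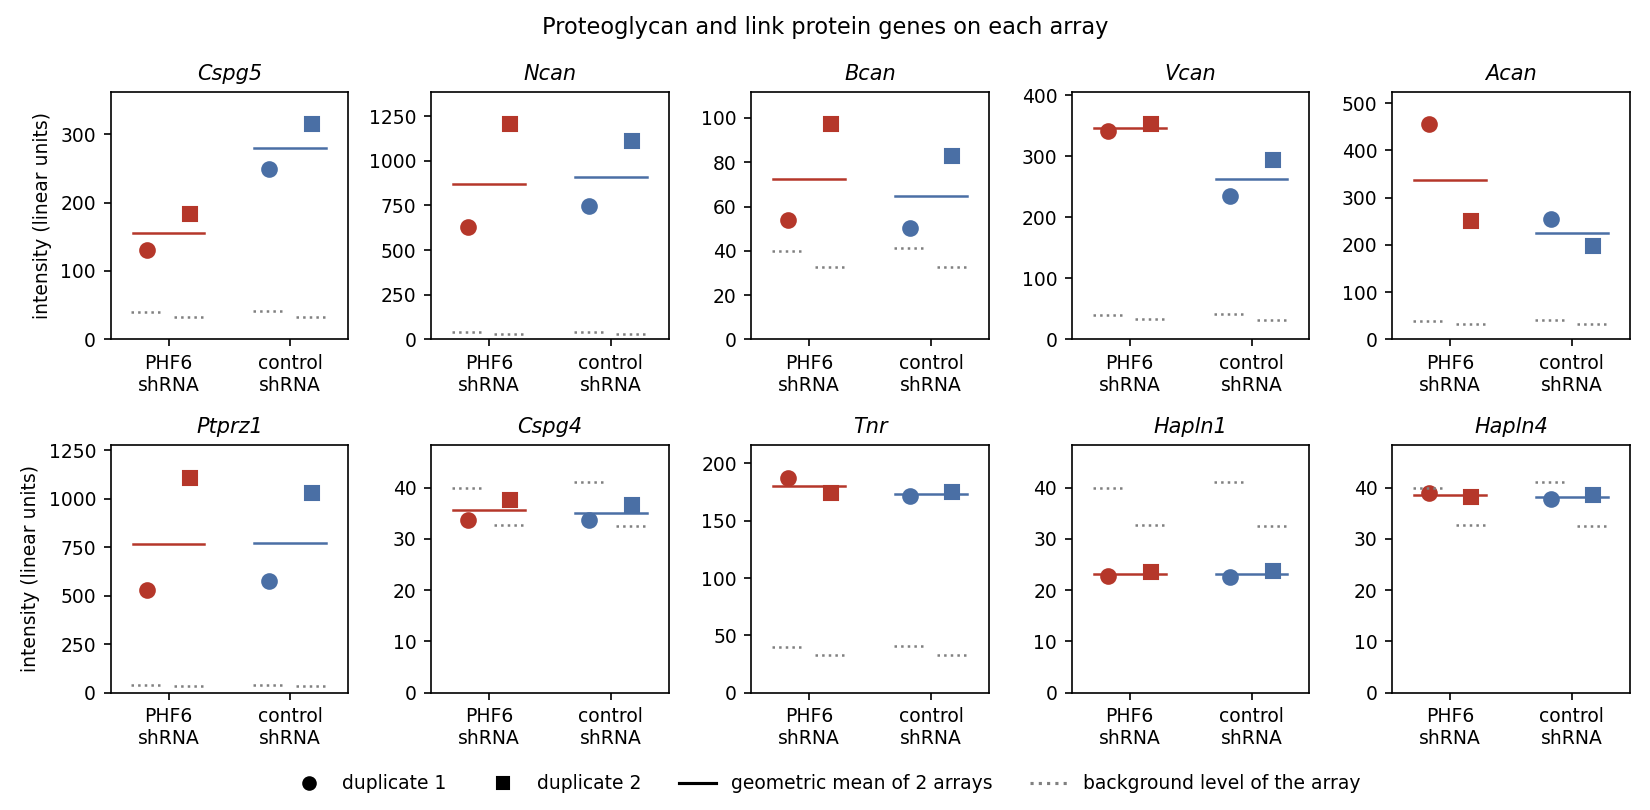
Intensity of each gene (linear units, vertical axis, starting at 0 and scaled per gene) on the 2 PHF6 shRNA arrays (red) and the 2 control shRNA arrays (blue), with circles for duplicate 1, squares for duplicate 2, lines at the geometric mean of each group and dotted lines at each array's background level. Both PHF6 shRNA values of Cspg5 lie below both control values and both of Vcan above, while Ncan, Bcan and Ptprz1 separate by duplicate number and not by group.

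Cspg5 read 131 and 184 intensity units in the PHF6 shRNA arrays, against 249 and 314 in the control arrays. Both PHF6 shRNA values were below both control values. On the log2 scale the means were 7.28 ± 0.34 in PHF6 shRNA and 8.13 ± 0.24 in control neurons (SD, n = 2 each). The difference was -0.85 ± 0.20 log2 units (SE, 95% interval -1.34 to -0.36), or 1.80-fold lower. Between the arrays numbered 1 it was -0.93 and between those numbered 2 it was -0.77. Ordered from the lowest difference, Cspg5 ranked 17 of 17245 genes. From knowledge of the study, and not from its labels, this gene may have been picked on these samples, so its direction and rank are given as a description and not as independent evidence. It did not pass the threshold over all genes (limma adjusted p = 0.263, unadjusted p = 0.00606). Without PHF6 shRNA duplicate 2 the difference was -1.09 and passed (limma adjusted p = 0.0294), and the adjusted p lay between 0.00569 and 0.586 under the 13 alternatives.

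Neuron markers read lower in the same arrays as Cspg5. Of 10 such genes 8 had a lower signal with PHF6 shRNA, against 52.3% of all genes, with a median difference of -0.15 log2 units. That median was -0.11 after a further quantile normalization and -0.094 after cyclic loess. Summed intensity of the 10 genes was 11350.4 and 11667 in the PHF6 shRNA arrays against 12618 and 12659.8 in the control arrays. Tubb3, a neuronal tubulin, differed by -0.22 ± 0.08 and Nefl, the neurofilament light chain, by -0.65 ± 0.21, whereas Elavl4, a neuronal RNA-binding protein, differed by 0.43 ± 0.10, and none of the 10 passed (limma, smallest adjusted p = 0.250). The part of these markers in the Cspg5 result was not tested. In RNA from a whole culture, fewer cells of a type and less RNA per cell cannot be told apart.

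Against the other 9 genes, the difference of Cspg5 was lower by 0.79 log2 units (Ncan) to 1.44 log2 units (Acan). The 95% interval of Cspg5 lay below the intervals of 6 of them, Vcan, Acan, Cspg4, Tnr, Hapln1 and Hapln4. Of these, Cspg4, Hapln1 and Hapln4 were near or below background, where a narrow interval bounds no change in the transcript. The interval of Cspg5 overlapped those of Ncan, Bcan and Ptprz1, whose intervals were wide. This is a description without a test, of a gene that may have been picked on these samples.

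Genes outside the set with an array profile most like that of Cspg5 were searched among 9489 genes above background on all 4 arrays. Symbols starting with LOC, Olr, Vom, Mir, a digit, or RGD and a digit had been left out. Likeness was the root mean square distance between log2 profiles, each centred on its own mean over the 4 arrays. Its median over the 9489 genes was 0.45. The 5 nearest were Stox2 (0.046), Dync1i2 (0.052), Cdk19 (0.059), Adamts3 (0.060) and Commd3 (0.064). Dync1i2 encodes an intermediate chain of cytoplasmic dynein, Cdk19 a kinase of the Mediator complex and Adamts3 a procollagen-processing protease. Stox2 read 232 and 299 in the PHF6 shRNA arrays against 422 and 516 in the control arrays, so that all 4 arrays stood in the same order as for Cspg5. Within the set the distance was 0.43 for Ncan, the closest, and 0.90 for Acan, the farthest. The 5 genes were picked as the nearest of 9489, and the set offered only 9 other genes. That the set lay farther is therefore a description.

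**Figure D2:**
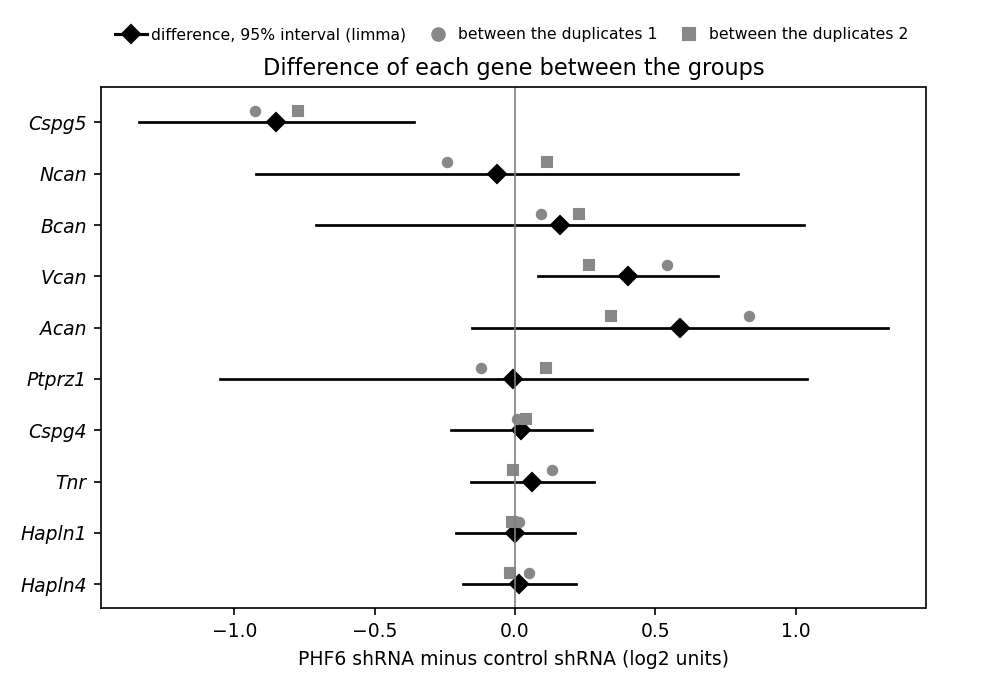
Difference of each gene, PHF6 shRNA minus control shRNA (log2 units, horizontal axis), as a diamond with limma's 95% interval, and in grey the difference between the arrays numbered 1 (circle) and between those numbered 2 (square). Cspg5 lies at -0.85 and Vcan at 0.40 with intervals that leave out 0, and the intervals of the other 8 genes include 0.

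The 4 lecticans did not move together between the groups. Vcan, versican, a large lectican of the embryonic and early postnatal matrix, read 341 and 353 in the PHF6 shRNA arrays against 234 and 294 in the control arrays. Its groups did not overlap, and the PHF6 shRNA arrays lay close together. The difference was 0.40 ± 0.13 log2 units (SE, 95% interval 0.082 to 0.72), with 0.54 between the arrays numbered 1 and 0.26 between those numbered 2, and it did not pass (limma adjusted p = 0.369, unadjusted p = 0.0226). Leaving out each array in turn gave 0.24 to 0.57, and 1.7% of all genes had a higher difference.

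Acan, aggrecan, the lectican most tied to perineuronal nets, read 455 and 249.9 in the PHF6 shRNA arrays against 255 and 197 in the control arrays. The groups overlapped narrowly, since PHF6 shRNA duplicate 2 was just below control duplicate 1. The difference was 0.59 ± 0.30 log2 units (95% interval -0.15 to 1.33, limma adjusted p = 0.598) and rested mostly on PHF6 shRNA duplicate 1. It was 0.16 without that array, and it was 1.02 and passed without PHF6 shRNA duplicate 2 (limma adjusted p = 0.0461, range over 13 alternatives 0.0325 to 1.0). Of all genes 0.754% had a higher difference.

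Ncan, neurocan, a lectican secreted mainly by neurons in the developing brain, read 629.8 and 1204 in PHF6 shRNA duplicates 1 and 2 against 745 and 1112 in control duplicates 1 and 2. Both arrays numbered 2 were far above both arrays numbered 1, and the groups overlapped. The difference between groups was -0.064 ± 0.34 log2 units (95% interval -0.92 to 0.79, limma adjusted p = 0.996). Bcan, brevican, which astrocytes and neurons make as the brain matures, read 53.7 and 97.2 in PHF6 shRNA duplicates 1 and 2 against 50.4 and 82.9 in control duplicates 1 and 2. It showed the same separation by number, and its difference between groups was 0.16 ± 0.35 (95% interval -0.71 to 1.03, limma adjusted p = 0.977). The intervals of both genes hold changes of more than 1.5-fold either way, so these arrays do not show that their levels were alike in the groups.

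Ptprz1 encodes a receptor-type tyrosine phosphatase of glia and their progenitors whose secreted form is phosphacan. It read 531 and 1109 in PHF6 shRNA duplicates 1 and 2 against 577 and 1028 in control duplicates 1 and 2. The arrays numbered 2 were again the high ones, and the difference between groups was -0.0055 ± 0.42 log2 units (95% interval -1.05 to 1.04, limma adjusted p = 0.999).

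The separation by number can be given for each gene as the ratio of duplicate 2 to duplicate 1 within a group. It was 2.09 in PHF6 shRNA and 1.78 in control neurons for Ptprz1, 1.81 and 1.64 for Bcan, 1.91 and 1.49 for Ncan, and 1.40 and 1.26 for Cspg5. At a level of 1.5-fold in both groups, chosen after the values were seen, Bcan and Ptprz1 qualified, as did 0.736% of all genes, and Ncan missed it in control neurons. Acan ran the other way, with ratios of 0.549 in PHF6 shRNA and 0.773 in control neurons. It missed the 1.5-fold level in control neurons. At a looser level, 1.38% of all genes, Acan among them, were at least 1.2-fold lower in duplicate 2 in both groups. In all, 7 of the 10 genes were higher in duplicate 2 in both groups, against 32.3% of all genes. The 7 include Hapln1, below background on every array, and Cspg4, near background. They also include Vcan, with ratios of 1.03 in PHF6 shRNA and 1.25 in control neurons.

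Markers of astrocytes and radial glia separated by number in the same direction as Ncan, Bcan and Ptprz1. All 11 measured markers of 12 were higher in duplicate 2 than in duplicate 1 in both groups, and 5 of the 11 were at least 1.5-fold higher, against 32.3% and 0.736% of all genes. Their summed intensity was 2769 and 5459 in PHF6 shRNA duplicates 1 and 2 against 2346 and 4442 in control duplicates 1 and 2, a ratio of 1.97 and 1.89. Fabp7, Slc1a3 and Gfap were named after their values were seen. Fabp7, a fatty acid binding protein of radial glia, was 3.39-fold and 3.69-fold higher in duplicate 2, and Slc1a3, a glial glutamate transporter, 2.39-fold and 2.45-fold. Gfap, the astrocyte filament gene, read 34.6 and 46.3 against 30.0 and 52.7 in the same arrays. It was above background only on the arrays numbered 2, whose background level was also lower. The part of glial cells in the separation of the proteoglycan genes was not tested.

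Between the groups all 11 of these glial markers had a higher mean with PHF6 shRNA, against 47.7% of all genes, with a median difference of 0.20 log2 units, and none passed. The 4 with the smallest unadjusted p were Slc1a2, the main glial glutamate transporter, at 0.98 ± 0.20 (limma adjusted p = 0.245), Aldoc, a brain aldolase, at 0.61 ± 0.18, the Notch target Hes5 at 0.29 ± 0.09 and S100b, a calcium-binding protein, at 0.14 ± 0.14. Vcan and Acan were higher in the same arrays, and the part of glial cells in that was not tested either.

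**Figure D3:**
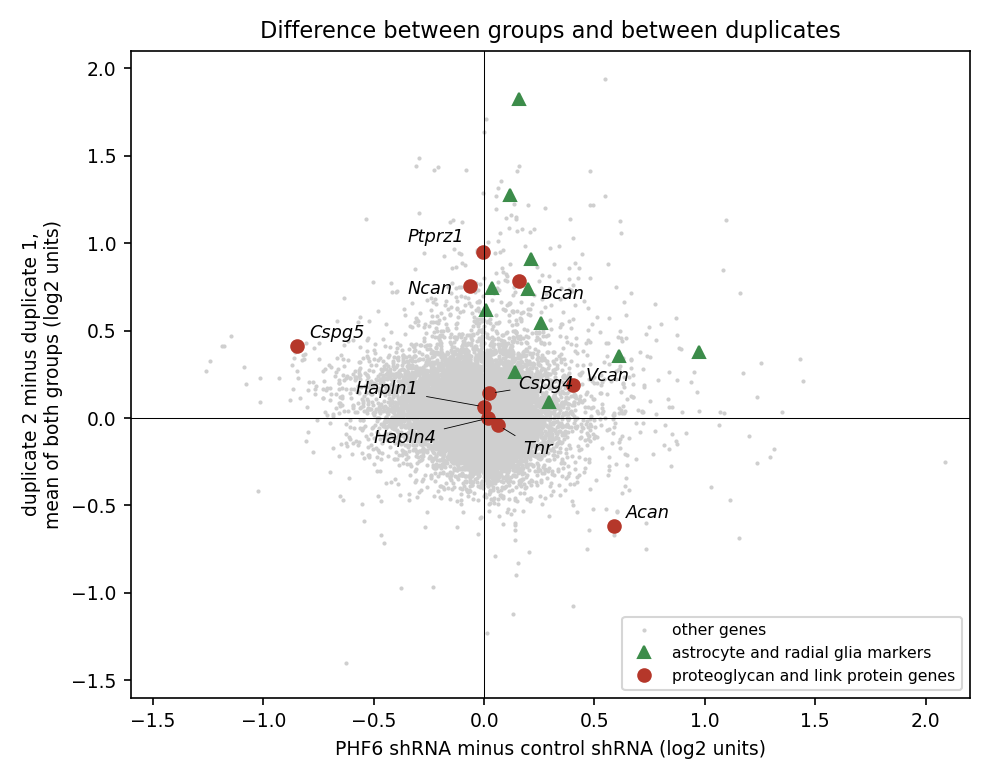
Each of 17245 genes by its difference between groups (horizontal axis, PHF6 shRNA minus control shRNA, log2 units) and its difference between duplicates (vertical axis, duplicate 2 minus duplicate 1, mean of both groups, log2 units), with 1 gene outside the axes. Ptprz1, Ncan and Bcan lie near 0 on the horizontal axis and high on the vertical axis beside the glial markers (triangles), Cspg5 lies far left, and Acan lies right and low.

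Promoter windows of 8 of the 10 genes were in the RefSeq table of the GRCr8 build, and those of Cspg5 and Ptprz1 were not used here. The windows of Ncan and Bcan are printed because both genes were high in the arrays numbered 2, and that of Acan because it ran the other way. Each window runs 5′ to 3′ from 250 bases before to 50 bases after the start, and capitals mark the GC box GGGCGG or its other strand CCGCCC:
Ncan (chr16:19335657-19335956, + strand): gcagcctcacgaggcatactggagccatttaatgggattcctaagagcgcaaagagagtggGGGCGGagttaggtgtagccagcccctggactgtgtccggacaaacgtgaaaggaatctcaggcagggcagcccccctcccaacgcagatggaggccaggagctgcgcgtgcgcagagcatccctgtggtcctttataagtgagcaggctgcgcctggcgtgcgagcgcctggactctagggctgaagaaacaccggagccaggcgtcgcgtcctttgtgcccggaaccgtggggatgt
Bcan (chr2:175765265-175765564, - strand): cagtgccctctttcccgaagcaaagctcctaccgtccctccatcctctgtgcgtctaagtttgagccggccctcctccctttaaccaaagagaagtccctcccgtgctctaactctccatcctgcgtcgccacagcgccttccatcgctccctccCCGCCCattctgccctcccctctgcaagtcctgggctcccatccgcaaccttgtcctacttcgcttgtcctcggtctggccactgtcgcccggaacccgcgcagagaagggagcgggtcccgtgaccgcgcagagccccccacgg
Acan (chr1:142390701-142391000, + strand): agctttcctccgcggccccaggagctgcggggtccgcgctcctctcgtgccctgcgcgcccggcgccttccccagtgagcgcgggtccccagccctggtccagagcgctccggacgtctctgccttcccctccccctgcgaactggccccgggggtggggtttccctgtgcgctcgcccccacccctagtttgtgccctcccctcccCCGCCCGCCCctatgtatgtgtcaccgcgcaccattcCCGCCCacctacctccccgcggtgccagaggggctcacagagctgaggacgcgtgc
The GC box occurred once in the windows of Ncan and Bcan and 3 times in that of Acan, where 2 matches overlap. Of the 8 genes with windows 5 held it, and 33.1% of 33465 windows hold it. The letters TATAAA or TTTATA occurred only in the window of Ncan among the 8 genes, and 14.2% of all windows hold them. The windows held 19 (Ncan), 22 (Bcan) and 28 (Acan) CpG dinucleotides, against a median of 7 over all windows. Those of the genes not printed held from 0 (Tnr) to 28 (Hapln4). These matches describe the sequences and show no binding.

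Cspg4, known as NG2, is a transmembrane proteoglycan of oligodendrocyte progenitors and pericytes. It read 33.8 and 37.7 in the PHF6 shRNA arrays against 33.7 and 36.7 in the control arrays, close to background on all 4. The difference was 0.023 ± 0.10 log2 units (95% interval -0.23 to 0.27, limma adjusted p = 0.995), and a signal at background bounds no change in the transcript. Of 8 measured genes of the oligodendrocyte lineage, Olig2, Cnp and Sox10 were above background on all 4 arrays, 6 of the 8 on at least 2 arrays, and Pdgfra and Nkx2-2 on none. Olig1, a transcription factor of the lineage, read 38.8 and 114 in PHF6 shRNA duplicates 1 and 2 against 49.9 and 133 in control duplicates 1 and 2. The 8 genes summed to 336 and 435 in the PHF6 shRNA arrays against 358 and 449.5 in the control arrays.

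Tnr, tenascin-R, which crosslinks lecticans, read 188 and 174 in the PHF6 shRNA arrays against 171 and 175 in the control arrays. The values overlapped, and the difference was 0.062 ± 0.087 log2 units (95% interval -0.16 to 0.28, limma adjusted p = 0.942). Hapln1, a link protein of perineuronal nets, read 22.8 and 23.6 in the PHF6 shRNA arrays against 22.6 and 23.8 in the control arrays, below background on all 4. Hapln4, the link protein that acts with brevican, read 39.1 and 38.1 in the PHF6 shRNA arrays against 37.8 and 38.6 in the control arrays. The differences were 0.0017 ± 0.084 and 0.016 ± 0.081 log2 units, and neither dim probe set can show a change in the transcript.

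Each lectican gene lies next to a link protein gene in the rat genome, with no protein-coding gene between them in the RefSeq annotation of GRCr8. The neighbours are Vcan and Hapln1 on chromosome 2, Bcan and Hapln2 on chromosome 2, Ncan and Hapln4 on chromosome 16, and Acan and Hapln3 on chromosome 1. The lectican differed by 0.40, 0.16, -0.064 and 0.59 log2 units in these 4 loci, and its neighbour by 0.0017, 0.090, 0.016 and 0.032. Hapln1, Hapln2 and Hapln3 were below background on every array, so that the differences of the link protein genes say little.

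None of the genes that build the chondroitin sulfate chain passed the threshold. Of 12 genes of the linker and the chain, all measured, 8 were lower with PHF6 shRNA and 4 higher, where 52.3% of all genes were lower. The median over the 12 was -0.17 log2 units, or -0.12 after a further quantile normalization and -0.11 after cyclic loess. At an unadjusted p under 0.05 were 4 of the 12, all lower, a level that 7.52% of all genes passed toward lower signal. The groups did not overlap in 6 of the 12, all lower, against 37.8% of all genes in either direction. Fam20b, the kinase that phosphorylates the xylose of the linker, read 51.5 and 65.7 in the PHF6 shRNA arrays against 98.2 and 112 in the control arrays. Its difference of -0.85 ± 0.14 was similar in size to that of Cspg5 and did not pass (limma adjusted p = 0.233). Without PHF6 shRNA duplicate 2 it was -1.02 and passed (limma adjusted p = 0.0235, range over 13 alternatives 0.00569 to 0.544). Chsy1, a chondroitin synthase, read 143 and 165 against 189.6 and 224 in control neurons, a difference of -0.42 ± 0.12. Csgalnact2, which starts the chondroitin chain on the linker, differed by -0.31 ± 0.10 and B3gat3, which adds the last sugar of the linker, by -0.29 ± 0.08 (limma adjusted p of the 3 genes from 0.333 to 0.361). The linker genes serve heparan sulfate as well as chondroitin sulfate.

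Genes of chain sulfation and epimerisation did not share that direction. Of 12, 9 were higher and 3 lower, where 47.7% of all genes were higher, and the median was 0.060. None reached an unadjusted p of 0.05 (limma), a level that 10.8% of all genes passed. The groups did not overlap in 3 of the higher and 3 of the lower genes, against 37.8% of all genes. Chst15, which makes the doubly sulfated E unit, read 225 and 202 in the PHF6 shRNA arrays against 159 and 191 in the control arrays, a difference of 0.29 ± 0.12, and the epimerase-like gene Dsel differed by 0.18 ± 0.10. Chst12, a chondroitin 4-O-sulfotransferase, read 87.8 and 113 against 123 and 126 in control neurons, a difference of -0.32 ± 0.14. Papss1, which makes the sulfate donor, differed by -0.24 ± 0.11.

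All 7 measured genes of hyaluronan and its binding partners, of 9 listed, had a higher mean with PHF6 shRNA, against 47.7% of all genes. Their median was 0.12, but 4 of the 7 were below background on every array. None reached an unadjusted p of 0.05 (limma), a level that 10.8% of all genes passed. Hyal2, a hyaluronidase, read 113 and 110.4 in the PHF6 shRNA arrays against 92.5 and 112 in the control arrays, and overlapped. The 3 others named by rule, Hyal1, Hapln2 and Has1, were among those below background. Has2, a hyaluronan synthase named after its values were seen, followed the duplicate number like the glial markers, at 65.0 and 169 in PHF6 shRNA duplicates 1 and 2 against 69.4 and 134 in control duplicates 1 and 2.

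Among 9 other proteoglycans of the brain, 5 were higher and 4 lower, with a median of 0.052. Only 1 of the 9, Spock1, reached an unadjusted p of 0.05, a level that 10.8% of all genes passed. Spock1, testican-1, a neuronal proteoglycan, read 446 and 447 in the PHF6 shRNA arrays against 519.5 and 617 in the control arrays, a difference of -0.34 ± 0.11 (limma adjusted p = 0.372). Its paralog Spock2 differed by -0.13 ± 0.08, Hspg2, perlecan, by 0.089 ± 0.092 and the dim Dcn, decorin, by 0.19 ± 0.09.

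Receptors and binding partners of the proteoglycans were evenly divided, 7 higher and 7 lower of 14, with a median of 0.022. At an unadjusted p under 0.05 were 2 higher and 2 lower, where 3.28% and 7.52% of all genes were. L1cam, an adhesion molecule that binds neurocan, read 798 and 846 in the PHF6 shRNA arrays against 1000.1 and 1041 in the control arrays, a difference of -0.31 ± 0.09. Ncam1, another neurocan ligand, differed by -0.27 ± 0.09. The Nogo receptor family genes Rtn4rl1 and Rtn4rl2 were on the other side, at 0.29 ± 0.08 and 0.27 ± 0.09, and Rtn4rl1 read 103.0 and 103.0 in the PHF6 shRNA arrays against 82.7 and 85.2 in the control arrays. None passed (limma adjusted p of these 4 genes from 0.313 to 0.407). Ptprs, Erbb2 and Erbb3 were also named after their values were seen. Ptprs, a phosphatase receptor for chondroitin sulfate, differed by -0.043. Erbb2 and Erbb3, receptor tyrosine kinases to which the EGF-like part of neuroglycan C has been linked, were below background on every array. Mdk, midkine, a growth factor that binds Ptprz1 and was named after its values were seen, read 136 and 247 in PHF6 shRNA duplicates 1 and 2 against 90.6 and 169.9 in control duplicates 1 and 2. It was higher in duplicate 2 by 1.81-fold and 1.88-fold. Its difference between groups was 0.56 ± 0.39, with 0.59 between the arrays numbered 1 and 0.54 between those numbered 2, and did not pass (limma adjusted p = 0.754).

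Matrix proteases and their inhibitors were higher in 12 of 16 measured of 17, with a median of 0.079, against 47.7% higher of all genes. The groups did not overlap in 5 of the 16, all higher, a smaller share than the 37.8% of all genes, and 1 of the 5, Mmp9, was below background on every array. Adamts15, a protease that cleaves lecticans, read 45.2 and 45.6 in the PHF6 shRNA arrays against 34.6 and 40.4 in the control arrays, a difference of 0.28 ± 0.10 (limma adjusted p = 0.433), and it was near background. Mmp15, a membrane-type metalloprotease, read 204 and 265 against 143 and 199.5 in control neurons, a difference of 0.46 ± 0.20. Adamts4, another lectican-cleaving enzyme, differed by 0.16 ± 0.09, and the inhibitor gene Timp2 by -0.26 ± 0.15.

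**Figure D4:**
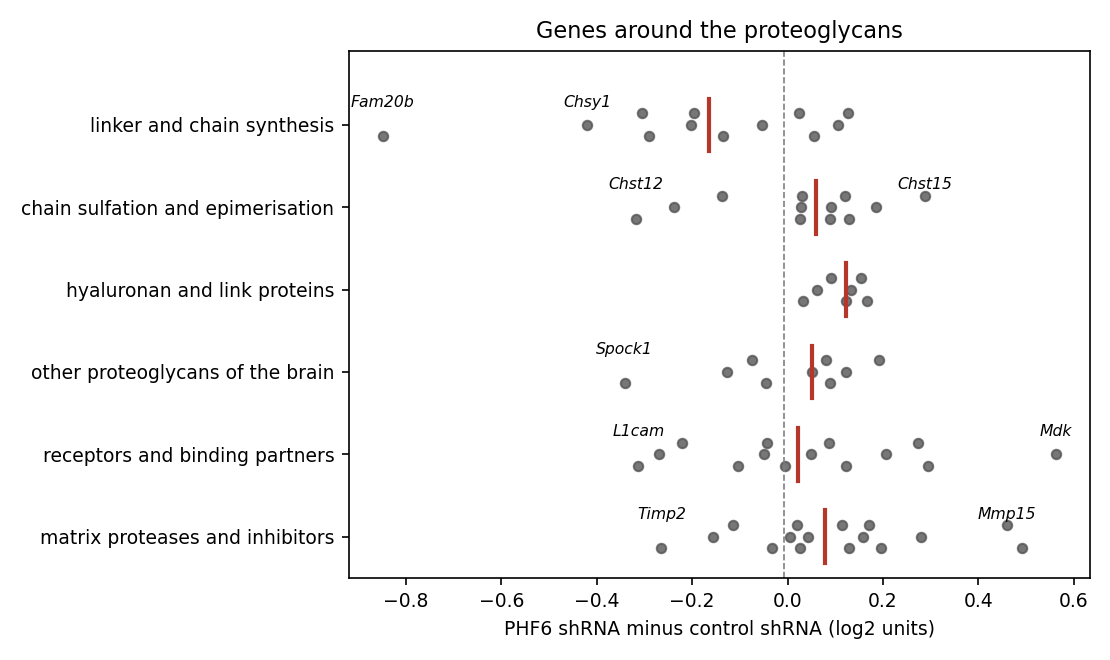
Differences of the genes around the proteoglycans, PHF6 shRNA minus control shRNA (log2 units, horizontal axis), with a point for each gene, a red bar at the median of each list and a dashed line at the median of all genes, -0.0066. The linker and chain synthesis genes lie mostly left of that line, with a median of -0.17 and Fam20b at -0.85, and the medians of the other 5 lists lie between 0.022 and 0.12.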

How the data were processed

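RNA of cortical neurons was hybridised to 4 one-colour Affymetrix arrays, per the labels' protocols. The submitters' processing notes name RMA for the probe set intensity values that the authors deposited. As a method, RMA subtracts background, sets arrays to shared quantiles and compresses differences of dim probe sets. Neither its version nor its settings were given in the sources used here. The intensities were on a linear scale (8.57 to 6121), so log2 was taken of the deposited values.

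Of 29214 rows, 18644 carried 1 gene symbol, 962 several and 9608 none in the annotation used. Symbols were updated through the gene identifier for 18460 rows. The brightest probe set stood for each of the 879 genes with several, which gave 17245 genes. Groups came from the sample titles. limma 3.58.1 in R 4.3.3 (lmFit, eBayes, 2-sided, no covariate, no filter) compared them, adjusting p over all genes by Benjamini-Hochberg (threshold 0.05), with 3.46 prior degrees of freedom. The fit was also run on simulated data with 4 independent arrays and no effect of the duplicate number. That simulation does not show how the fit behaves where same-numbered arrays vary together. A difference is the mean log2 intensity of PHF6 shRNA arrays minus that of control arrays, with limma's SE.

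The genes and lists were chosen with earlier results of these data known. All 10 genes were named, then up to 4 genes of each list by smallest unadjusted p and any under 0.01, and the 5 genes most like Cspg5. Further genes of the lists were named after their values were seen. They were Fabp7, Slc1a3, Gfap, Has2, Hapln3, Mdk, Ptn, Ptprs, Erbb2, Erbb3, Mmp9, Olig2, Pdgfra and Nkx2-2. In the cell lists of oligodendrocytes, microglia, vessels and fibroblasts, only summed or background values are given. The exceptions are Olig1, given on each array, and Cspg4 and Dcn, which belong to other lists too. Alternatives were a replicate block, leaving out each array, 3 scalings, a filter, other probe set summaries, all rows, a variance trend and a pseudocount of 16. All 4 arrays were used, and any 2 of them held at most 11 identical values.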

Additional observations from a re-analysis of the deposited data

How the results depend on the processing

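Cspg5 kept its direction under all 13 alternatives, as did Vcan, Acan and Tnr. The replicate block, the filter, other probe set summaries, all rows and the variance trend left these differences unchanged by design. For Cspg5 and Vcan, whose groups did not overlap, leaving out an array or adding the pseudocount could not turn the direction either. For both, only the 3 scalings could have. With the duplicate number as a replicate block 909 of all genes passed and 3 of the 10 proteoglycan and link protein genes, Cspg5 (-0.85, limma adjusted p = 0.00569), Acan (0.59, 0.0325) and Vcan (0.40, 0.0487). The sample descriptions give the duplicate number as an experiment number. They do not state that the same number pairs the arrays of the groups. Deviations from the group mean correlated at 0.57 between same-numbered arrays across genes, which are not independent. With 2 numbers the data cannot settle the pairing. In that fit 5 of the 10, Ptprz1, Bcan, Ncan, Acan and Cspg5, also differed by number (limma adjusted p from 0.00227 to 0.0383), as did 684 of all genes. Leaving out each array in turn gave 0 to 90 genes past the threshold over all genes and 0 to 2 among the 10. Leaving out an array leaves 1 in a group, assumed to vary like the other group, and leaves unequal numbers in the groups. The differences then ran from -1.09 to -0.61 log2 units for Cspg5, -0.056 to 0.10 for Cspg4, -0.53 to 0.40 for Ncan, -0.27 to 0.59 for Bcan, -0.54 to 0.53 for Ptprz1, -0.037 to 0.040 for Hapln1 and -0.0011 to 0.033 for Hapln4. They ran from -0.0083 to 0.32 for Hyal1, -0.0074 to 0.28 for Hyal2 and -0.0057 to 0.29 for S100b. Ptn, of the list of receptors and binding partners, differed by 0.21 ± 0.19 over all 4 arrays (limma adjusted p = 0.861). Its difference ran from -0.045 to 0.46 when an array was left out. Cyclic loess turned Ncan to 0.010, Ptprz1 to 0.071 and Hapln1 to -0.012. A further quantile normalization turned Ptprz1 to 0.055 and Hapln1 to -0.012, and centring on the median turned Hapln1 to -0.0011. The cause was not tested. With the block 13 of 39 other named genes passed, where 909 of all 17245 genes did. Among the 13 were Fam20b, Slc1a2 and Mdk (0.56, limma adjusted p = 0.0101). The 39 were picked on these same arrays, mostly by the smallest unadjusted p of their list or by likeness to Cspg5. The count of 13 is therefore not independent evidence. Hapln1, Hyal1 and other dim genes had no value under the filter on dim genes. Signal near background limits Cspg4, Hapln1 and Hapln4, and 2 arrays a group limit all.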
